A study of Homo sapiens with 3 samples.

Results

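The 9 genes described here encode regulators and targets of the p53 pathway and inhibitors of cyclin-dependent kinases (CDKs): MDM2, MDM4, CDKN1A, CDKN1B, CDKN1C, BAX, BBC3, PMAIP1 and GADD45A. They were listed by their function in the pathway, with earlier results of these data known. They are 9 of 20033 protein-coding genes on chromosomes 1 to 22, X and Y. Binding of CHD8 and TRRAP was measured by chromatin immunoprecipitation and sequencing (ChIP-seq) in hNSCs, human neural stem cells of WT genotype that were made from the embryonic stem cell line H9. The labels name no treatment, and the 3 libraries were made from the same kind of cells, which were crosslinked in 2 steps (disuccinimidyl glutarate at 2 mM, formaldehyde at 1%) and sheared by 14 cycles of sonication. The antibody to CHD8 was from Bethyl and that to TRRAP from Invitrogen, and the library made with control IgG was not used here. With 1 library per antibody no difference has a replicate check, and no p-value or SD is given. Peaks describe binding and not the level of expression.

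p53 is a transcription factor that is kept at a low level by MDM2, a ubiquitin ligase that marks it for degradation, and by MDM4, a relative of MDM2 that blocks its activation domain. DNA damage releases p53, which then drives genes that stop the cell cycle (CDKN1A), assist the damage response (GADD45A) or permeabilise mitochondria (BAX, BBC3, PMAIP1), and it drives MDM2 itself as a feedback. CDKN1A (p21), CDKN1B (p27) and CDKN1C (p57) form the Cip/Kip family, which binds and inhibits cyclin-CDK complexes in neural progenitors as they leave the cell cycle. CHD8 is a chromatin remodeler that has been described as a partner and inhibitor of p53, and TRRAP is the scaffold through which histone acetyltransferase complexes are brought to transcription factors.

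The deposited lists held 23393 CHD8 and 14735 TRRAP peaks, and the number of reads behind each is unknown. Each peak has a fold, the authors' own enrichment ratio at the summit, and a −log10 q, the significance by which peaks were ranked within their own list. Folds took evenly spaced values, 0.442 apart in the CHD8 list and 0.478 apart in the TRRAP list, so 2 folds that differ by that amount lie 1 step apart. Among the cell type markers, the promoters of the neural genes SOX1, SOX2, PAX6, NES and VIM carried both peaks, and those of the pluripotency genes POU5F1 and NANOG carried neither. POU5F1 and NANOG had low ratios of observed to expected CpG, 0.361 and 0.297. Both were below the 25th percentile of all protein-coding genes (0.408). Both peaks were present at only 0.549% to 6.19% of genes in deciles 1 to 3 of this ratio. The neural genes had ratios from 0.660 (PAX6) to 0.923 (SOX1). The markers were not set against genes of like CpG ratio. Their contrast therefore describes those promoters and does not check the labelled cell type.

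From 5 kb upstream of each gene to its end, the 9 loci held 20 CHD8 and 12 TRRAP peaks. A peak was at the promoter if it overlapped the 1 kb on either side of the start of the gene's canonical transcript, and this held for 12 of the CHD8 and 9 of the TRRAP peaks. All 9 genes had a CHD8 promoter peak, against 55.9% of all protein-coding genes. TRRAP promoter peaks were present at 7 genes (background 34.9%), and the same 7 had both (background 34.0%). The genes without a TRRAP peak were BAX and PMAIP1, which encode pro-apoptotic proteins, and for neither did the TRRAP list hold a peak within 10 kb of the locus. The share of genes with both peaks rose with the CpG ratio (CpG observed over expected) of the promoter, from 0.549% in the lowest decile to 65.8% in the highest. The share with a CHD8 peak rose too, from 1.60% to 86.1%. All 9 members fell in deciles 5 to 10, where 72.8% to 86.1% of genes had a CHD8 promoter peak, well above the 55.9% of all genes. Among the members, 7 of the 9 promoters had a CpG ratio above the median of all genes (0.725), with a range from 0.670 at MDM4 to 0.943 at CDKN1C. In the top 3 deciles of CpG ratio the background with both peaks was 59.4%, and 5 of the 6 members in those deciles had both. Among genes with a CHD8 promoter peak 60.7% also had TRRAP, beside 77.8% (7 of 9) of the members. Restriction to peaks above the median rank of each list left 8 genes with CHD8 and 4 with both (BBC3, GADD45A, MDM2 and MDM4). The shares of all protein-coding genes under this restriction were not computed, so these counts have no background beside them.

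**Figure D1:**
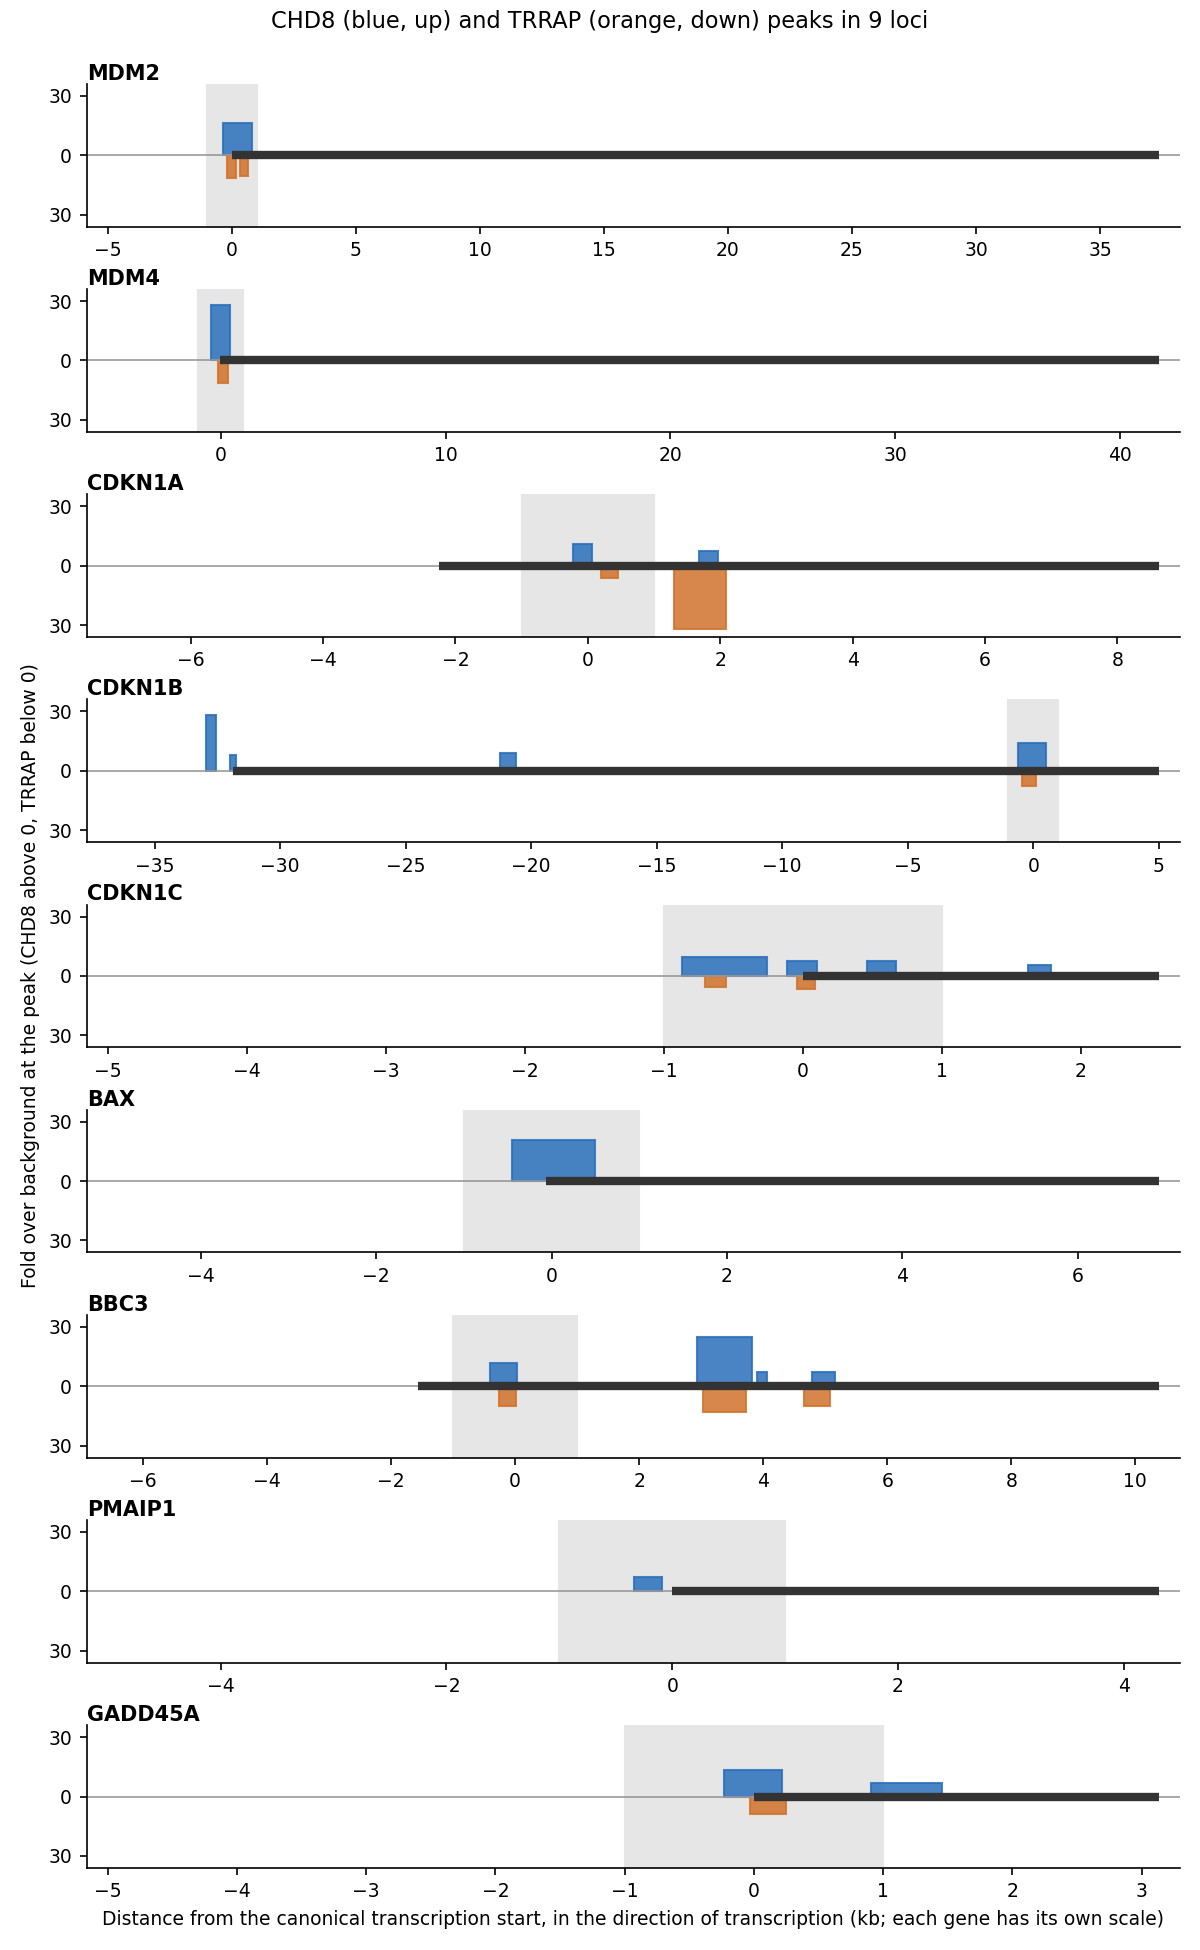
Peaks of CHD8 (blue, drawn upward) and TRRAP (orange, drawn downward) from 5 kb upstream of each gene to its end. The horizontal axis is the distance from the canonical start in kb in the direction of transcription, the bar height is the fold, the bar width is the peak's width, the black bar is the annotated gene and the grey band is the promoter window. The TRRAP bar inside CDKN1A, with a fold of 32.1, is the tallest TRRAP bar, while BAX and PMAIP1 have no TRRAP bar.

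The CHD8 promoter folds of the 9 genes lay on both sides of the middle range of all genes, whereas no TRRAP promoter fold exceeded the 75th percentile. The strongest CHD8 promoter peak of each gene had a median fold of 13.3 (range 7.10 to 27.9), beside a median of 12.0 (25th to 75th percentile 9.31 to 16.4) over 11208 genes with such a peak, and 5 of the 9 were above that median. For TRRAP the median over the 7 genes was 8.65 (6.26 to 11.5), equal to the median of 8.65 (25th to 75th percentile 7.21 to 11.5) over 7000 genes. The members covered most of the range of CHD8 promoter peaks: MDM4 was stronger than 93.3% of genes with a peak by rank, BAX than 85.8% and MDM2 than 75.2%, whereas CDKN1C reached 25.6% and PMAIP1 6.39%.

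**Figure D2:**
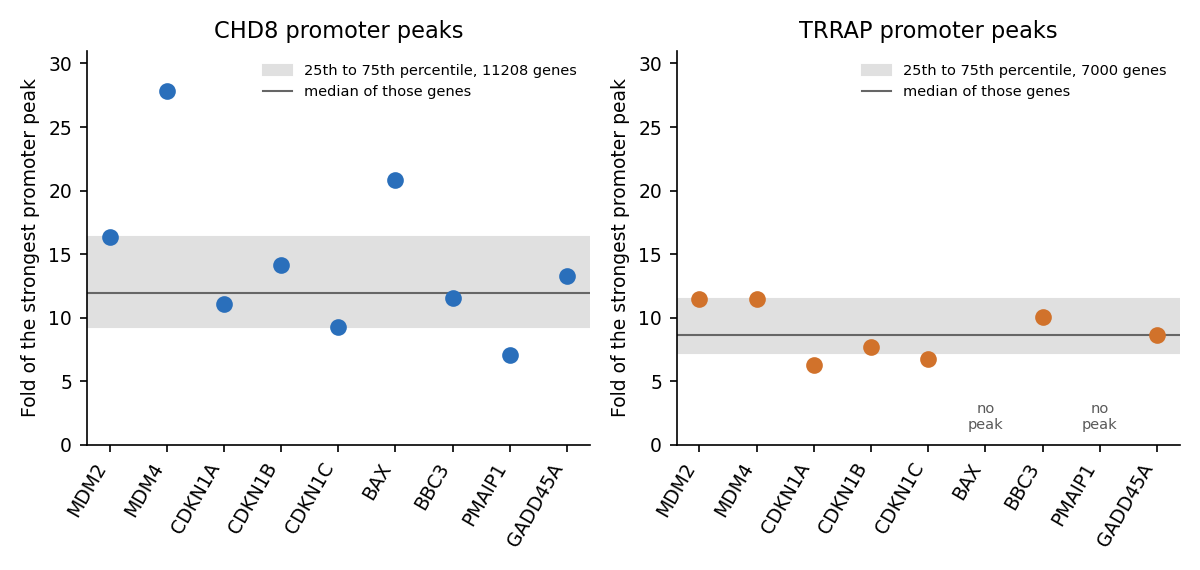
Fold of the strongest promoter peak of each of the 9 genes for CHD8 (left) and TRRAP (right), 1 library each, so that points have no error bar. The grey band is the 25th to 75th percentile and the line the median over all protein-coding genes with a peak. MDM4 and BAX lie above the CHD8 band and PMAIP1 lies below it. No member lies above the TRRAP band, and CDKN1A and CDKN1C lie below it.

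The inhibitors of p53, MDM4 and MDM2, had CHD8 promoter folds at or above the 75th percentile of genes with such a peak (16.4). BAX, a pro-apoptotic gene, also exceeded it. At MDM4 (chromosome 1) CHD8 covered 204515977 to 204516813 with a fold of 27.9, the highest promoter fold of the 9 genes, and lay within the strongest 3.39% of the list, with its summit in intron 1, 113 bp downstream of the start. TRRAP covered 204516304 to 204516717 with a fold of 11.5, and its summit was in the 5' UTR in exon 1, 7 bp from the start. MDM4 thus had 1 peak of each protein at its start and no other peak across a locus of 46.7 kb.

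At MDM2 (chromosome 12) a CHD8 peak of 1148 bp, the widest of the members, ran from 68807833 to 68808980 with a fold of 16.4 and its summit at −68 bp (offsets count from the canonical start, negative upstream). Beneath it lay 2 TRRAP peaks, at 68807975 to 68808356 (fold 11.5, summit at −30 bp) and at 68808519 to 68808814 (fold 10.6, summit at 466 bp, in intron 1). MDM2 has a pair of promoters, a constitutive one before exon 1 and a p53-responsive one in intron 1, and the annotation places transcript starts at 0 to 287 bp and again at 825 to 1049 bp, with others from 5425 bp onward. The first TRRAP summit lay just upstream of the first group, and the second lay between the groups, 179 bp from the nearest start. More than 1 TRRAP peak at the promoter was found at 23.8% of genes with any. The sequences 50 bp on each side of the CHD8 summit and of the second TRRAP summit are shown because the capitals, which mark consensus words on either strand, differ between them: the overlapping CCAAT and ATTGG in the first, and the E-box CACGTG, 5 bp from the summit, in the second. All sequences here are GRCh38, 5′ to 3′ in the direction of the gene.
MDM2 CHD8 summit, chr12:68808059-68808159, plus strand: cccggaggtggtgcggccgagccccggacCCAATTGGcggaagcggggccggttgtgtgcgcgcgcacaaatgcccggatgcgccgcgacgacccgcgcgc
MDM2 second TRRAP summit, chr12:68808593-68808693, plus strand: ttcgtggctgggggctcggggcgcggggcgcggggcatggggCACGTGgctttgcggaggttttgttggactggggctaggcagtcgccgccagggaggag

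The Cip/Kip inhibitors differed from one another. CDKN1A (chromosome 6), which arrests the cell cycle in G1, had a CHD8 peak directly upstream of its start, at 36678486 to 36678771 (fold 11.1, summit at −78 bp), and a weak TRRAP peak in intron 1 at 36678918 to 36679168 (fold 6.26, at 86.0% of the way down the list). The start of the divergent long noncoding RNA gene DINOL is at −155 bp, so the CHD8 summit lay between the starts of both genes. These promoter peaks did not overlap: 146 bp lay between them, and their summits were 332 bp apart. Of the 7 genes with both promoter peaks, the other 6 had an overlapping pair. Over all genes, 94.0% of 7877 promoter TRRAP peaks overlapped a CHD8 peak. The share of genes with both peaks but no overlapping pair was not computed.

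The strongest TRRAP peak of all 9 loci was also at CDKN1A, but outside the promoter window. It covered 775 bp of intron 1, from 36680021 to 36680795, with a fold of 32.1 and a summit 1838 bp downstream of the start. It ranked 208 of 14735 TRRAP peaks, within the strongest 1.41%. Among 3038 genes with a TRRAP peak away from their promoter, 29 including CDKN1A had one of that rank or higher. A CHD8 peak of 281 bp lay wholly inside it, at 36680395 to 36680675, but its fold was 7.54 and it stood at 71.8% of the CHD8 list. The summits were 86 bp apart.

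Few pairs had such ranks. Of 12788 TRRAP peaks that overlapped a CHD8 peak, 208 had a TRRAP rank as high as that of CDKN1A, and their CHD8 partners lay at a median of 1.74% of the CHD8 list (25th to 75th percentile 0.371 to 14.1). CHD8 partners below the median rank occurred in 7 of these 208, and the partner of CDKN1A was 1 of the 2 weakest. The other stood at 69.4% but had the same fold (7.54) and the same −log10 q, a value shared by 3372 CHD8 peaks, so width alone set their order. This pair was chosen for description after its values were seen. The nearest annotated start of any gene, one of CDKN1A, was 1781 bp from the TRRAP summit. The sequences around the promoter CHD8 summit and the intronic TRRAP summit are shown for comparison. Neither held any of the consensus words listed further on, so they have no capitals.
CDKN1A promoter CHD8 summit, chr6:36678586-36678686, plus strand: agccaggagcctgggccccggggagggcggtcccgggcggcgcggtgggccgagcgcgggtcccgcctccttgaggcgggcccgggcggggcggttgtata
CDKN1A intron 1 TRRAP summit, chr6:36680502-36680602, plus strand: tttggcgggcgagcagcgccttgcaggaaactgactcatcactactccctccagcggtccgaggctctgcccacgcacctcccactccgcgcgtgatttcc

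**Figure D3:**
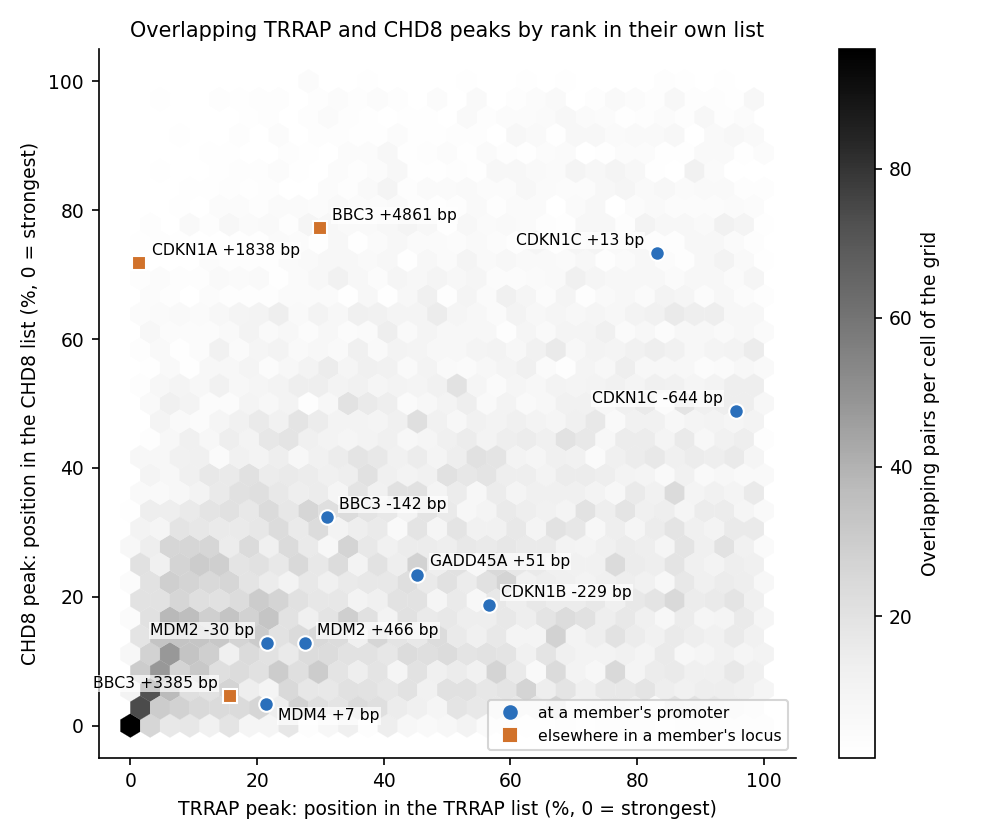
Each overlapping pair of a TRRAP and a CHD8 peak, placed by the position of its TRRAP peak (horizontal) and of its CHD8 peak (vertical) in their own lists, in percent, with 0 the strongest. Grey cells count all 12788 pairs, and coloured symbols are the 11 pairs of the members, named by gene and by the distance of the TRRAP summit from the start. The CDKN1A intronic pair sits at 1.41% and 71.8%, apart from the dense band of pairs in which both peaks are strong.

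CDKN1B (chromosome 12), the inhibitor that holds quiescent cells in G0 and G1, had overlapping promoter peaks, CHD8 at 12716749 to 12717867 (fold 14.2, 1119 bp wide, summit in the 5' UTR in exon 1) and TRRAP at 12716931 to 12717463 (fold 7.69, summit at −229 bp). A stronger CHD8 peak was found near the far end of the annotated locus, at 12684401 to 12684812, with a fold of 28.3, the highest CHD8 fold of the 9 loci. Its summit was at −32709 bp and 138 bp from an annotated start of GPR19, a neighbouring gene for an orphan receptor that is transcribed in the opposite direction. A weak CHD8 peak (12685360 to 12685592, fold 7.98) was 7 bp from the most distal annotated start of CDKN1B itself, and another (12696127 to 12696766, fold 8.87) was 47 bp from a further CDKN1B start, with its summit at −20962 bp, near the canonical GPR19 start at −21185 bp. None of these 3 peaks overlapped TRRAP. The strongest of them had 51.5% G and C within 50 bp of the summit, less than the CHD8 summits at the starts of MDM2 (76.2%) and CDKN1A (81.2%). The CHD8 summit at the CDKN1B promoter had 61.4%. The weaker distal summits had 51.5% (at −31877 bp) and 31.7% (at −20962 bp), so the value was not particular to the strongest. The strongest distal summit is shown as an example of these and holds none of the words in the stretch printed.
CDKN1B distal CHD8 summit, chr12:12684609-12684709, plus strand: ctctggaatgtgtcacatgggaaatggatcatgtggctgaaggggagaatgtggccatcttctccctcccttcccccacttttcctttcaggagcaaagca

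CDKN1C (chromosome 11), an imprinted gene expressed from the maternal copy, had the highest CpG ratio of the members but weak, fragmented peaks. Its promoter window held 3 CHD8 peaks, at 2886034 to 2886642 (fold 9.31, summit at −725 bp), 2885671 to 2885885 (fold 7.54, summit 2 bp from the start) and 2885106 to 2885313 (fold 7.54, summit in coding exon 2). More than 1 CHD8 peak was present at 23.2% of genes with any. The 2 TRRAP peaks, at 2885685 to 2885812 (fold 6.73) and 2886323 to 2886481 (fold 5.78), each lay inside a CHD8 peak, with summits 11 and 81 bp from the CHD8 summits, and stood at 83.1% and 95.5% of their list. Another CHD8 peak in coding exon 3, at 2883986 to 2884157, had a fold of 5.33, the lowest of the 20 CHD8 peaks. ChIP-seq peaks do not separate the maternal from the paternal copy.

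The pro-apoptotic genes divided by whether TRRAP was found. BAX (chromosome 19), which encodes the pore-forming protein of the outer mitochondrial membrane, had the second highest CHD8 promoter fold of the members, 20.8, in a peak of 939 bp at 48954428 to 48955366, with the summit at −132 bp, and no TRRAP peak. PMAIP1 (NOXA, chromosome 18), a BH3-only activator of apoptosis, had a narrow CHD8 peak upstream of its start, at 59899661 to 59899909 (fold 7.10, summit at −119 bp), the weakest of the members' strongest promoter peaks, and no TRRAP peak. Promoters without a listed TRRAP peak thus had CHD8 folds near both ends of the members' range, and TRRAP binding under the authors' threshold would not be seen in the list.

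BBC3 (PUMA, chromosome 19), another BH3-only protein and a strong p53 effector, had both proteins at 3 places. At the canonical start, CHD8 covered 47231173 to 47231598 (fold 11.5) and TRRAP 47231181 to 47231450 (fold 10.1), with summits at −127 and −142 bp. The stronger pair was in intron 2, where CHD8 (47227371 to 47228261, fold 24.8) and TRRAP (47227480 to 47228164, fold 12.9) had summits 83 bp apart. These summits were 542 and 625 bp from the start of another BBC3 transcript. Another pair in intron 3, at 47226040 to 47226417 for CHD8 (fold 7.10) and 47226128 to 47226542 for TRRAP (fold 10.1), had summits 817 and 604 bp from the start of the microRNA gene MIR3190. An additional CHD8 peak at 47227132 to 47227305 (fold 7.10) was 37 bp from the start of that other BBC3 transcript.

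Peaks away from the promoter were thus found at 4 members for CHD8 (CDKN1A, CDKN1B, CDKN1C and BBC3; background 24.3%) and at 2 for TRRAP (CDKN1A and BBC3; background 15.2%), and these 2 genes had both (background 13.7%). A stronger peak outside the promoter than in it was not unusual. It was found at 48.3% of 1357 genes with TRRAP peaks in both places and at 40.6% of 3228 such genes for CHD8. These counts depend on the start chosen: when the starts of all annotated transcripts counted as promoters, CDKN1A alone kept a CHD8 and a TRRAP peak elsewhere. For BBC3, RefSeq places the start at −1468 bp. The other 6 members in the RefSeq table had a RefSeq start at the canonical start. With the RefSeq start the BBC3 promoter window held neither peak.

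GADD45A (chromosome 1), a stress-response gene induced by DNA damage, had closely matched promoter peaks. CHD8 covered 67684973 to 67685419 (fold 13.3) and TRRAP 67685175 to 67685449 (fold 8.65). Both summits were in the 5' UTR in exon 1, 57 and 51 bp downstream of the start and 6 bp apart, the closest pair of the members. A second, weaker CHD8 peak extended from 67686105 to 67686654 (fold 6.66, summit in intron 2).

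Across the 9 loci, 11 of 12 TRRAP peaks overlapped a CHD8 peak (91.7%, beside 86.8% of all TRRAP peaks), and 10 of 20 CHD8 peaks overlapped a TRRAP peak (50%, beside 48.6% of all CHD8 peaks). The single TRRAP peak without CHD8 was the one at the CDKN1A promoter. Summits of the 11 overlapping pairs were a median of 83 bp apart (range 6 to 534 bp), beside 80 bp (25th to 75th percentile 29 to 202 bp) for all overlapping pairs and 103 bp for those at promoters. The widest gap, 534 bp, belonged to the second TRRAP peak of MDM2. Every 32-base word within 50 bp of the 32 summits occurred once in the reference genome.

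Consensus words were searched on both strands within 100 bp of each summit: the E-box (CACGTG), E2F (TTTCCCGC, TTTGGCGC, TTTCGCGC or TTTGCCGC), NRF1, ETS (CCGGAAGT), YY1 (AAGATGGCG), NFY (CCAAT) and SP (GGGGCGGGG). None of these words contains another. The E2F, NRF1 and YY1 words were in 0 of the 32 member windows, beside 2.57%, 0.620% and 2.60% of all CHD8 windows and 3.14%, 0.657% and 1.83% of all TRRAP windows. The E-box, the word bound by MYC and MAX, was in 1 of 20 CHD8 windows (BAX; 5.37% of all CHD8 peaks) and in 1 of 12 TRRAP windows (MDM2; 7.03% of all TRRAP peaks). The NFY word was in 5 CHD8 windows (BAX, CDKN1B, GADD45A and MDM2; 17.9% of all) and in 3 TRRAP windows (15.9% of all). The SP word was in 3 CHD8 windows (BBC3 and PMAIP1; 12.0% of all) and in 2 TRRAP windows (14.9% of all). The ETS word was in 0 of 20 CHD8 windows (3.63% of all) and in 1 TRRAP window (MDM4; 2.46% of all).

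At BAX, 3 E-boxes lay within 100 bp of the CHD8 summit, 3, 42 and 90 bp from it, at a promoter where the list held no TRRAP peak. The nearer 2 of them and a CCAAT word, here as ATTGG, are in capitals in the stretch around that summit. At PMAIP1 the capitals mark 2 SP words.
BAX CHD8 summit, chr19:48954693-48954793, plus strand: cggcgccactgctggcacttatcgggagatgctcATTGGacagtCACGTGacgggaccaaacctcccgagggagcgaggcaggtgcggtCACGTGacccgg
PMAIP1 CHD8 summit, chr18:59899827-59899927, plus strand: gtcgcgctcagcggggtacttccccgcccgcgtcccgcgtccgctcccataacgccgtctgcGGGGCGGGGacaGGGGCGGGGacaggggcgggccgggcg

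Because several members are p53 targets, the loci were also searched for the p53 consensus, a site of 20 bp formed by 2 adjacent 10-base repeats. Each repeat has 3 purines, a core of C, 2 bases that are A or T, and G, and then 3 pyrimidines. With both cores intact and at most 2 mismatches elsewhere, matches were found in 5 of 9 loci (MDM4, CDKN1A, CDKN1B, PMAIP1 and GADD45A). Such a match was in 23.7% of all protein-coding loci and in 10.4% of the 10867 loci of the members' range of lengths, 7.56 to 46.7 kb. None of the 20 CHD8 or 12 TRRAP peaks of the members held such a match, beside 0.130% of all CHD8 and 0.105% of all TRRAP peaks on these chromosomes that held one. In promoter windows it was found at 1 of 9 members, PMAIP1, and at 0.649% of all genes. The CDKN1A match, which corresponds to the well-known distal p53 element of that gene, was at −2255 bp, next to the most distal annotated starts of CDKN1A, and 2018 bp from the nearest CHD8 peak. The GADD45A match, in intron 3, where a p53 element is also well known, was 121 bp beyond the edge of the weaker CHD8 peak. Both matches are on the plus strand and are printed whole in capitals.
CDKN1A distal match, chr6:36676449-36676468: GAACATGTCCCAACATGTTG
GADD45A intronic match, chr1:67686775-67686794: GAACATGTCTAAGCATGCTG

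This search missed the known element of BBC3, so it was widened after the sequences had been seen, to require the C and G of both cores and allow 3 mismatches among the other 16 bases. The wider search found a match at 6 of 9 member promoters and at 7.28% of the 20033 promoter windows of 2001 bp. The widening was made to include the BBC3 element, so these counts are a description. Matches then lay inside 5 of the 20 CHD8 peaks (BAX, BBC3, CDKN1B, MDM2 and PMAIP1), beside 1.73% of all CHD8 peaks. They lay inside 2 of the 12 TRRAP peaks (BBC3 and CDKN1B), beside 1.03% of all TRRAP peaks. Of the matches inside these peaks, only that of BBC3 had both cores intact. Those of BAX and MDM2 each had 1 mismatch in the cores, and those of CDKN1B and PMAIP1 each had 2. The match at BBC3 was 4 bp from the CHD8 summit and 11 bp from the TRRAP summit, and it is in capitals in the stretch around that summit together with an SP word. The match at MDM2 was 756 bp downstream of the start, in the intron 1 promoter region, inside the CHD8 peak and 109 bp beyond the second TRRAP peak. A match is a description of letters and does not show that p53 binds there in these cells.
BBC3 promoter CHD8 summit, chr19:47231276-47231376, minus strand: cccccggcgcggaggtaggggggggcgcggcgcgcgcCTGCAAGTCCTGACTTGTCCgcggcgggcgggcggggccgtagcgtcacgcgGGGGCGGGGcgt
MDM2 intron 1 match, chr12:68808923-68808942: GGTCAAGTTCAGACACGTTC

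The wider pathway was followed in lists of related genes. All 16 p53 regulator genes had a CHD8 promoter peak and 12 had both, beside 55.9% and 34.0% of all protein-coding genes. Their median CpG ratio was 0.811, beside 0.725 over all genes, and both shares rose with that ratio. RCHY1, a ubiquitin ligase for p53, had the highest CHD8 fold (44.2, with a TRRAP fold of 6.26), followed by DAXX, a chaperone and partner of MDM2 (36.3 and 10.1). PPM1D, the phosphatase that dampens the p53 response, had the highest TRRAP fold of this list (12.9, CHD8 13.3), and COP1, another ubiquitin ligase (CHD8 12.4), and the acetyltransferase gene EP300 shared the next (10.6). The list's median CHD8 fold was 16.2, beside 12.0 over all genes with a peak.

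Among 30 other p53 target genes, 23 had CHD8, 19 had both and 7 had neither. The shares with CHD8 and with both were 76.7% and 63.3%, beside 55.9% and 34.0% of all protein-coding genes. The median CpG ratio of this list was 0.805, also above the 0.725 of all genes. The highest CHD8 folds were at SCO2, a mitochondrial assembly factor (16.4), and TRIAP1, an inhibitor of apoptosis (15.9). The highest TRRAP folds were at BID (23.9, beside a CHD8 fold of 10.6), a BH3-only protein, and at PLK2 (16.8, CHD8 10.2), a polo-like kinase. BID was also on the list of 13 BCL2 family genes, whose median CpG ratio was 0.765. Of these, 9 had CHD8 (69.2%), 6 had both (46.2%) and BCL2 alone had TRRAP without CHD8. BAD, like BAX, had a strong CHD8 peak (27.9) and no TRRAP promoter peak, whereas the anti-apoptotic BCL2L1 had both (23.9 and 12.5). The 4 BCL2 family genes without a CHD8 promoter peak were BCL2, BCL2A1, BIK and HRK.

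Of 4 other CDK inhibitor genes (median CpG ratio 0.840), 3 had CHD8 and 1, CDKN2D, had both (folds 11.1 and 7.21). CDKN3 had the highest CHD8 fold (11.5) and CDKN2C had no peak in its window. The targets of these inhibitors and the proteins downstream were followed in 11 G1 cyclin, CDK and pocket protein genes (median CpG ratio 0.764). Of these, 11 had CHD8 and 9 had both. Over all protein-coding genes the shares were 55.9% and 34.0%, with a median CpG ratio of 0.725. RBL1 (p107) had the highest folds for both proteins (38.0 and 18.2), CDK4 the next CHD8 fold (15.1), and CCNE1 and CDK4 shared the next TRRAP fold (12.0). The relatives GADD45B and GADD45G had both peaks, with CHD8 folds of 8.87 and 8.43 and TRRAP folds of 9.60 and 12.0, whereas in GADD45A the CHD8 fold was 13.3 and the TRRAP fold 8.65. Differences between these lists were not tested, and their counts were not set against genes of like CpG ratio.

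**Figure D4:**
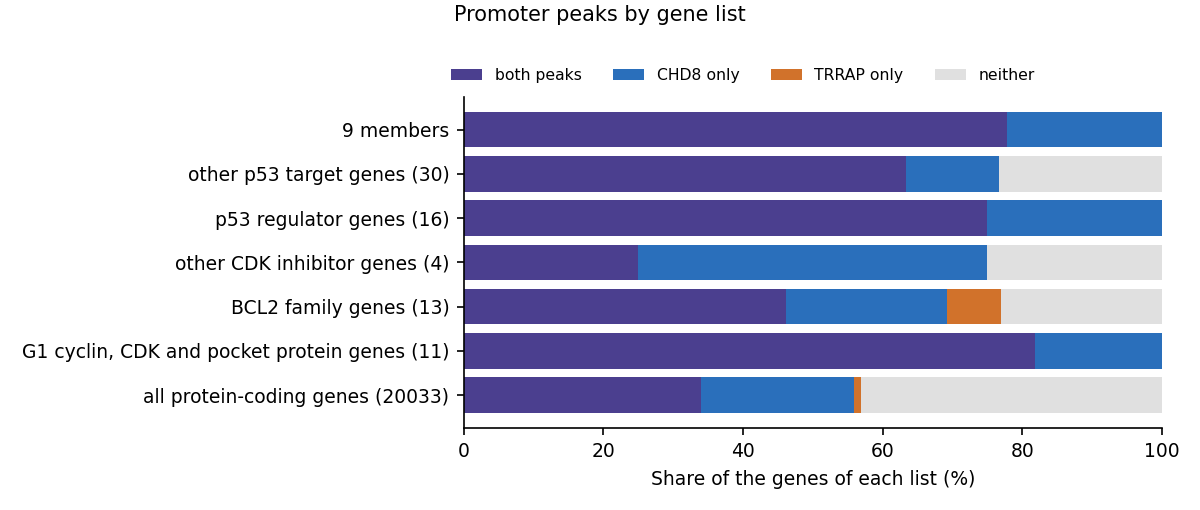
Share of each gene list with both promoter peaks (purple), CHD8 alone (blue), TRRAP alone (orange) or neither (grey), with the number of genes in brackets. Of the 9 members, 7 had both peaks and 2 had CHD8 alone, beside 34.0% with both among all 20033 protein-coding genes.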

How the data were processed

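Peaks of 1 CHD8 and 1 TRRAP ChIP-seq library were analysed as deposited. Per the submitters' processing notes, HISAT2, MACS2 2.1.1.20160309 and GRCh38 were used; the control and settings are not given in the sources used here. The deposited fold is a ratio over background, −log10 p and −log10 q values are per peak, and the deposited score was 10 times −log10 q, rounded down, in every peak. Deposited names give an FDR of 0.0001 for the CHD8 list and 0.001 for the TRRAP list. All sequence names were found in the reference and 0 peaks ran past a sequence end. Coordinates count from 1. Peaks were compared with GENCODE 44 canonical starts and ranked within each list by −log10 q, then fold, width and position. The CpG ratio (observed over expected) used 500 bp on each side of the start. The RefSeq promoter table (GRCh38.p14) held 7 of the 9 members. The members and lists were chosen with earlier results of these data known. Named genes were the 9 members and, from each other list, the 2 highest folds of each protein and the genes without CHD8 where 5 or fewer. Overlap and word searches were tested on simulated data. Alternatives varied the promoter window, start, locus, rank, q-value and overlap rule. Python 3.11.15, numpy 2.4.6, pandas 2.3.3, pysam 0.24.0, samtools 1.23.1 and matplotlib 3.10.9 were used.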

Additional observations from a re-analysis of the deposited data

How the results depend on the processing

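Of 44 values recomputed under alternatives, 29 stayed within 1.5 times the reported count, and no count without a replicate has a test. With peaks above the median rank of each list, 4 members had a TRRAP promoter peak, 4 had both and 2 had a CHD8 peak elsewhere. The same restriction left 9 other p53 target genes, 3 BCL2 family genes, 4 G1 cyclin, CDK and pocket protein genes and 0 other CDK inhibitor genes with both. Shares of all protein-coding genes were not computed under this restriction. With starts of all transcripts, 1 member had a CHD8 and 1 a TRRAP peak elsewhere. With RefSeq starts, chosen after the data were seen, 4 of the 7 members in that table had TRRAP and 4 had both, beside 5 and 5 of the same 7 with canonical starts; CDKN1C and GADD45A were not matched. With a window of 2500 bp, 2 other CDK inhibitor genes had both. The wider p53 search, also chosen after the data were seen, gave 6 promoters, 5 CHD8 peaks and 2 TRRAP peaks in place of 1, 0 and 0. The read totals are unknown, so a gene without a listed peak was not detectable at the authors' threshold rather than shown to be unbound. No paired analysis was possible because each antibody had 1 library.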

Other observations

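Several peaks lay just beyond the limit of 5 kb upstream or past the gene end. Upstream of CDKN1A, a CHD8 peak (chromosome 6, 36667147 to 36667492, fold 9.75) and a TRRAP peak (36667145 to 36667428, fold 12.0) shared almost the same bounds, with summits at −11435 and −11395 bp from the canonical start. Past the end of CDKN1B, CHD8 (chromosome 12, 12724763 to 12725971, fold 12.4) and TRRAP (12724893 to 12726011, fold 15.8) overlapped with summits 18 bp apart, 636 and 654 bp from the start of APOLD1. Both TRRAP folds were higher than that of the TRRAP promoter peak of the nearest member.

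Upstream of BBC3, CHD8 (chromosome 19, 47243983 to 47244469, fold 10.6) and TRRAP (47244103 to 47244413, fold 11.5) had summits 24 and 58 bp from the start of a long noncoding RNA. MDM4 had 3 CHD8 peaks with folds of 7.54, 9.75 and 8.87 with summits from −9917 to −8502 bp, none of which overlapped TRRAP. Past BAX, a CHD8 peak with a fold of 11.5 had its summit 16 bp from the start of FTL, the ferritin light chain gene. It too overlapped no TRRAP peak.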
